A study of Homo sapiens with 12 samples.

Results

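The genes described here are the collagens, laminins and matrix glycoproteins of MDA-MB-231, an established line of human breast cancer cells without estrogen receptor, progesterone receptor or HER2 amplification. They were taken from the count table by symbol: every collagen alpha chain (COL, a number, A, a number), every symbol that starts with LAMA, LAMB or LAMC and a digit, and FN1, TNC, SPARC, FBN1, FBN2, NID1, NID2, HSPG2, AGRN, LOX, LOXL1, LOXL2 and LOXL4. Of the 26364 rows of the table, 71 matched, and 47 of these had at least 10 counts in at least 3 libraries. The other 24, among them SPARC, NID1, COL1A2 and COL3A1, were below that minimum. COL26A1 reached the minimum but not the filter of the test, so 46 of the 47 were tested. The rule also took LAMA5-AS1, an antisense RNA of the laminin gene LAMA5. The sources used here do not say whether reads were counted by strand, so those of that pair may not be told apart.

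RNA was sequenced from 12 wells of 1 established cell line, 3 wells in each of 4 groups. Wells received no drug, 1 µM dexamethasone (DEX), 8 µM SH4-54, or the same doses of both compounds, for 24 h. DEX is a synthetic agonist of the glucocorticoid receptor, and SH4-54 is a small molecule that inhibits the transcription factors STAT3 and STAT5. All groups share the cell line, the day of growth before treatment and the treatment time. No vehicle is named for the untreated wells in the sources used here. The replicates are wells, and p-values therefore measure how wells vary.

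The extracellular matrix around epithelial and tumour cells has a thin basement membrane and a looser interstitial part. The basement membrane is built from laminin trimers, each of an alpha, a beta and a gamma chain, and from a network of type IV collagen, which nidogens and heparan sulfate proteoglycans tie together. Hemidesmosomes, with the transmembrane collagen XVII, and anchoring fibrils of collagen VII hold epithelial cells to that sheet through a laminin that holds the LAMA3 and LAMB3 chains. The interstitial part holds fibrillar collagens with the collagens that decorate them, fibronectin, tenascin-C and fibrillins, and lysyl oxidases crosslink its collagen and elastin. Glucocorticoids are long known to change matrix synthesis in skin, bone and eye.

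The libraries held 28439725 to 31552360 counted reads without drug, 26040956 to 29426776 with DEX, 25577213 to 28864061 with SH4-54 and 26280158 to 35758236 with both. FKBP5, a glucocorticoid receptor target used here to check the labels, had 53.9 ± 1.56 counts-per-million (CPM) without drug and 326 ± 17.5 with DEX (SD, n = 3). The levels were 54.3 ± 2.26 with SH4-54 and 218 ± 47.1 with both. On the second principal component, 17.5% of the variance, the wells with both compounds lay at -22.3, -31.4 and -12.98. The 6 genes expected in this line (VIM, CD44, AXL, ZEB1, MSN and CAV1) summed to 3962 to 4650 CPM in every well. The 6 genes expected to be low were ESR1, PGR, ERBB2, GATA3, CDH1 and EPCAM. They summed to 109 to 110.4 CPM without drug, 121 to 128 with DEX, 103 to 108 with SH4-54 and 110.3 to 118 with both. Most of this was ERBB2, at 75.95 CPM without drug, with EPCAM at 21.1 and CDH1 at 11.5. The estrogen receptor ESR1 had 4 counts in all over the no-drug wells. The 7 fibroblast markers summed to 11.7 to 12.99 CPM without drug, 13.3 to 14.5 with DEX, 9.79 to 10.4 with SH4-54 and 8.74 to 10.005 with both, most of it PDGFRB, and 1 of the 7 had 0 counts with SH4-54. The 4 endothelial markers summed to 3.27 to 4.85 CPM without drug, 9.42 to 10.8 with DEX, 3.55 to 4.92 with SH4-54 and 6.30 to 8.996 with both, mainly KDR, with CDH5 and VWF at 0 counts without drug. The 4 immune markers summed to 42.0007 to 44.3 CPM without drug, 36.2 to 39.2 with DEX, 47.1 to 47.6 with SH4-54 and 48.1 to 53.1 with both, mainly CD68, with CD3E at 0 without drug. The part of these markers in the results was not tested.

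Levels between genes are compared per kilobase of exon, with gene lengths from an annotation of another build than the counts, so the order is approximate. The highest levels in untreated cells were those of laminin chains. LAMC1, the gamma chain of most laminins, stood at 52.1 ± 1.25 CPM per kb, LAMB1 at 39.3 ± 0.606 and LAMB2 at 35.7 ± 1.38 (SD, n = 3). The crosslinking enzyme LOXL2 stood at 31.3 ± 0.784 and COL4A1 at 30.0 ± 1.03, lower than these 3, and LOXL2 and COL4A1 overlapped within 1 SD of each mean. The major fibrillar collagen chain COL1A1 stood at 0.187 CPM per kb, and its partner COL1A2 was below the count minimum. FN1, fibronectin, stood at 18.4 ± 1.60 without drug. With DEX it had the highest level per kb of the 46 members with a length, 62.3 ± 1.86, followed by LAMC1 at 55.9 ± 0.855 and COL8A1 at 47.98 ± 1.003. Together the 47 members took 0.338% ± 0.0129 of all counts without drug, 0.410% ± 0.00839 with DEX, 0.325% ± 0.00330 with SH4-54 and 0.365% ± 0.0225 with both. FN1 alone supplied 4.97% ± 0.262 of the members' counts without drug, 13.7% ± 0.357 with DEX, 4.73% ± 0.148 with SH4-54 and 9.34% ± 1.25 with both.

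The comparison of DEX with no drug asks what a glucocorticoid does to matrix transcripts in these cells. DEX shifted the makeup of the matrix transcripts and moved members in both directions. FN1, collagen VIII (COL8A1), lysyl oxidase (LOX) and the type IV chains COL4A4, COL4A5 and COL4A6 rose, while collagens VII, XIII, XV and XVII, tenascin-C and LAMB3 fell. Of the 46 tested members 15 rose and 15 fell (edgeR's quasi-likelihood test, adjusted p below 0.05 over all tested genes). Over all 14184 tested genes 45.1% were called, 21.9% up and 23.2% down, against 65.2% of the members, 32.6% each way. The median size of the log2 fold change, sign ignored, was 0.42 over the members and 0.17 over all tested genes. The signed medians were -0.042 and -0.011. The wells of the 2 groups did not overlap for 37 of the 46 tested members, the 30 called and some not called. This was not counted over all tested genes, so it cannot be read as particular to the members.

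**Figure D1:**
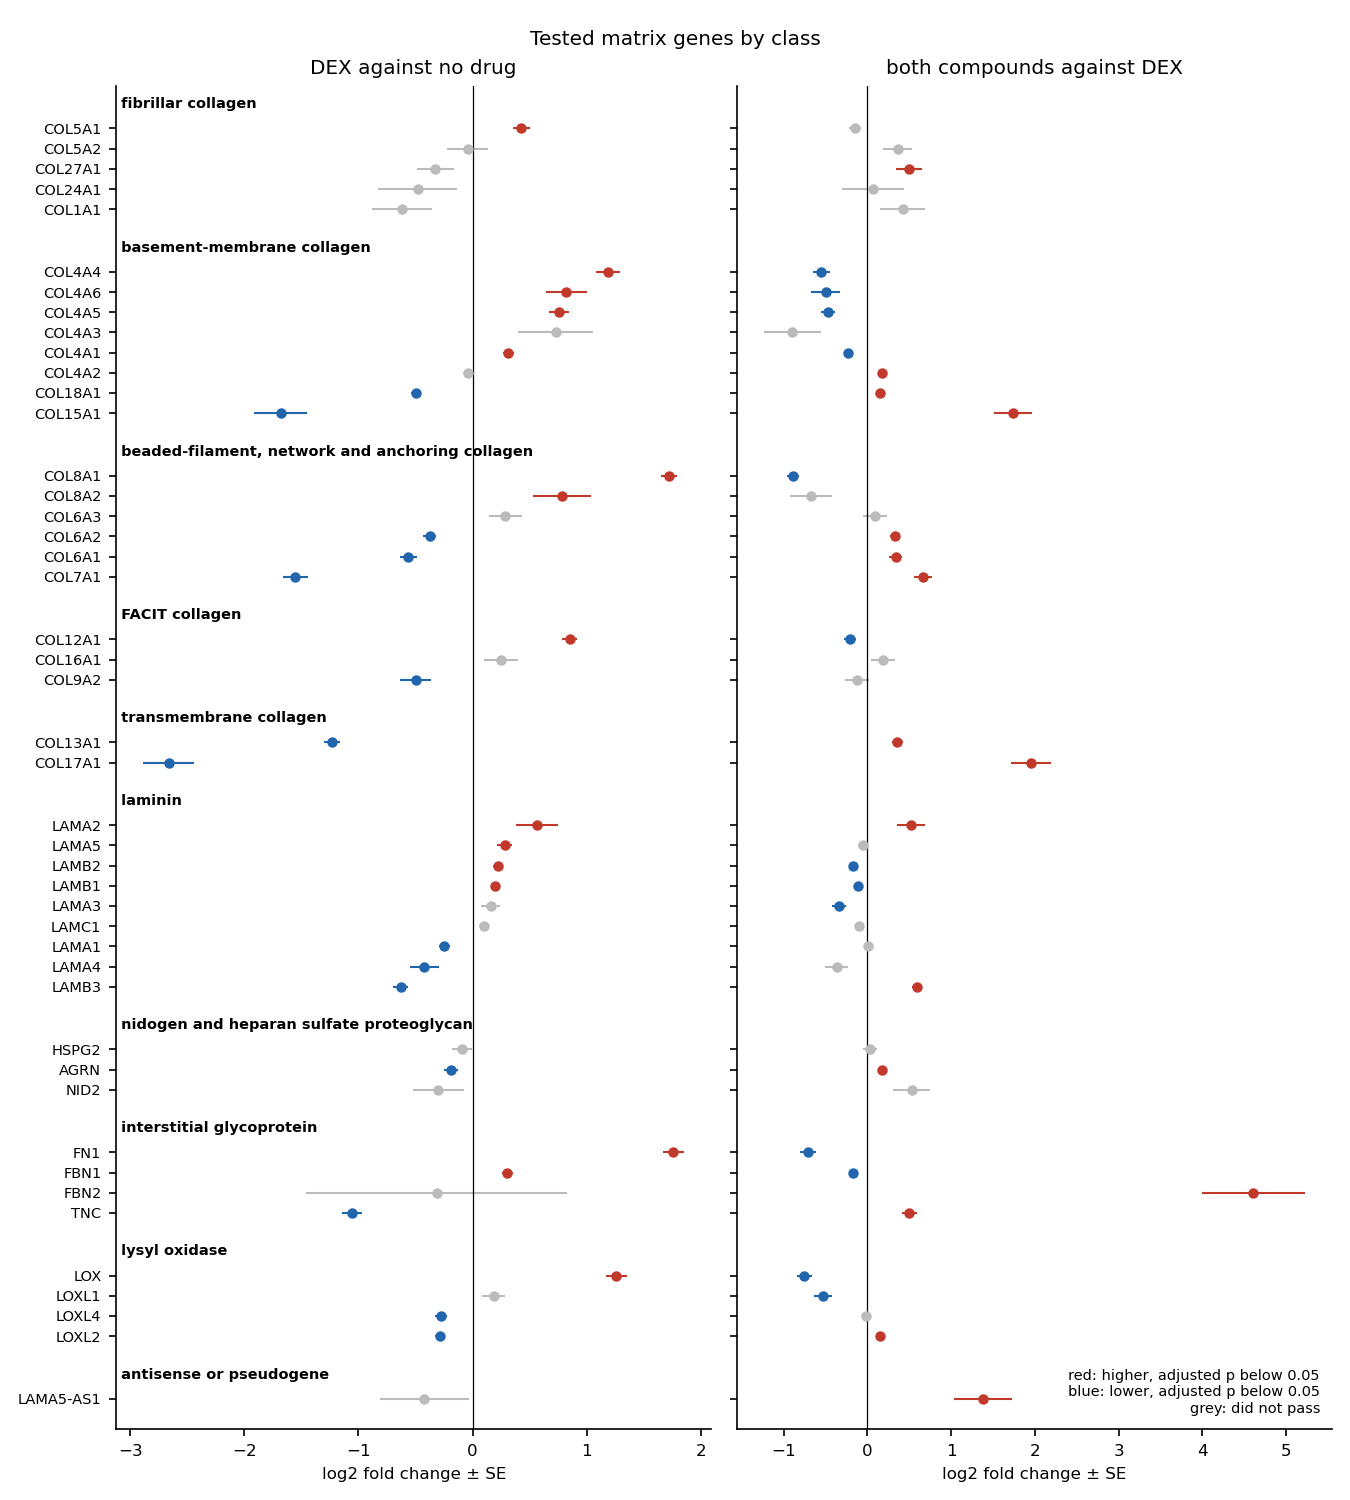
Log2 fold change ± SE of 45 of the 46 tested members, ordered by matrix class and then by the DEX value, for DEX against no drug (left) and both compounds against DEX (right). With DEX the members run from -2.66 for COL17A1 to 1.76 for FN1, and the 2 transmembrane collagens are both lower.

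In the interstitial glycoproteins 2 of 4 tested members rose and 1 fell with DEX. Fibronectin binds integrins and seeds the deposition of other matrix proteins. FN1 stood at 184, 159 and 158 CPM in the 3 no-drug wells and at 585, 562 and 552 in the DEX wells. Every DEX well was far above every untreated one, a log2 fold change of 1.76 ± 0.10 or 3.39-fold (adjusted p = 1.38e-09). FBN1, the main microfibril protein fibrillin-1, rose by 0.30 ± 0.048. TNC, tenascin-C, an adhesion-modulating glycoprotein of injured and tumour tissue, went the other way. TNC stood at 14.9, 13.5 and 12.97 CPM without drug and at 6.81, 6.47 and 6.63 with DEX, with all DEX wells below all untreated wells. Its log2 fold change was -1.06 ± 0.087 (adjusted p = 1.29e-07). The promoter of FN1 is shown because FN1 had the largest rise among the members. It is the RefSeq window from 250 bases before to 50 after the annotated start (GRCh38.p14, chr2:215436019-215436318, minus strand, printed 5′ to 3′ along the gene), and capitals mark a TGACGTCA match 183 bases before the start and a CCAAT match 162 bases before it.
FN1: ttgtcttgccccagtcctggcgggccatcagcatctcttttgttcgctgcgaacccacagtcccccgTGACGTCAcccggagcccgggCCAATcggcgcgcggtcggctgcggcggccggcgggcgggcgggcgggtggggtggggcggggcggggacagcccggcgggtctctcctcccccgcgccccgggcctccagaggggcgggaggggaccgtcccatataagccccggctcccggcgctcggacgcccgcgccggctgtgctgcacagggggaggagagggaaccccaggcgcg

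The lysyl oxidases crosslink collagen and elastin, and of 4 tested members 1 rose and 2 fell with DEX. LOX, the founding enzyme of the family, stood at 27.2, 25.8 and 25.2 CPM without drug and 61.9, 61.6 and 63.9 with DEX. The groups were far apart, with a log2 fold change of 1.26 ± 0.090 (adjusted p = 2.76e-08). LOXL2, the most abundant member of the family here, stood at 114, 110.3 and 109 CPM without drug and 91.7, 87.2 and 95.6 with DEX. All DEX wells were lower, but by little, with a log2 fold change of -0.28 ± 0.043 (adjusted p = 8.12e-05). LOXL4 fell by 0.28 ± 0.054 on the log2 scale. LOXL1, best known for elastic fibres, had 0.18 ± 0.10 and did not pass (adjusted p = 0.166).

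In the beaded-filament, network and anchoring collagens 2 of 6 tested members rose and 3 fell with DEX. Collagen VIII makes short-chain networks in vessel walls and the cornea. COL8A1 stood at 82.9, 83.1 and 83.5 CPM without drug and at 273, 268 and 279.8 with DEX. The log2 fold change was 1.72 ± 0.070 (adjusted p = 6.64e-11), and the wells within each group lay close together. Its partner chain COL8A2, with 32 counts in all over the no-drug wells and 50 over the DEX wells, had 0.79 ± 0.26 (adjusted p = 0.0329). That call was lost without no-drug well 1 (adjusted p = 0.0759), no-drug well 3 (0.118), DEX well 2 (0.122) or DEX well 3 (0.0787), and with DESeq2 (0.176) or no count filter (0.0759). Collagen VII builds the anchoring fibrils under the epithelial basement membrane. COL7A1 stood at 83.5, 73.2 and 73.2 CPM without drug and at 25.4, 27.4 and 25.6 with DEX. The DEX level was 0.341 times the untreated one, a log2 fold change of -1.55 ± 0.11 (adjusted p = 2.39e-08). The beaded-filament chains of collagen VI changed less: COL6A1 fell by 0.56 ± 0.076 and COL6A2 fell by 0.37 ± 0.056 on the log2 scale. Their partner COL6A3 had 0.29 ± 0.14 and did not pass (adjusted p = 0.119), except without no-drug well 1 (0.0327).

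The COL7A1 promoter is shown because it alone among the 47 windows of the 39 members with a RefSeq entry held 2 matches to TTCNNNGAA, the palindrome that STAT proteins bind. The window is GRCh38.p14 chr3:48595280-48595579, minus strand, and capitals mark TTCTGGGAA 162 bases before the start, TTCCCAGAA 152 before it and a TATAAA match on the other strand.
COL7A1: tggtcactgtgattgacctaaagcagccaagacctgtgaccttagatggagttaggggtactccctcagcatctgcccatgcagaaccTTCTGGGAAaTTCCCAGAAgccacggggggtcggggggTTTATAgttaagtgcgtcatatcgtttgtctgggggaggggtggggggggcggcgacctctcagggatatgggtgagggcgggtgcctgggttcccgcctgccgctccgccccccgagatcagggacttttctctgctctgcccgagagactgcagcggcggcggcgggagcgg
The palindrome occurred in 2 of the 47 member windows (4.26%), those of COL7A1 and LAMB2, and in 7.66% of all 35116 windows of the table. Both strands were searched for this and 6 other motifs. The 15-base glucocorticoid response element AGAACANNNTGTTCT was in 0 of the member windows and in 0.00285% of all windows. The 6-base AGAACA alone, a part of it, was in 6 member windows (12.8%, against 14.8%). These belong to 4 of the 39 members, as overlapping windows of LAMB3 and of COL5A1 hold the same match 2 times each. The AP-1 site TGANTCA was in 2 (4.26%, against 7.71%) and the cAMP response element TGACGTCA in 1 (2.13%, against 1.85%). TATAAA was in 5 (10.6%, against 11.5%) and CCAAT in 11 (23.4%, against 34.6%). A match is a run of letters in a short window, and glucocorticoid receptor sites are often far from the start.

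The transmembrane collagens sit in the cell membrane with a collagenous tail outside the cell, and both tested members fell with DEX. Collagen XVII is a hemidesmosome protein. COL17A1 stood at 6.26, 5.30 and 4.53 CPM without drug and at 0.696, 0.925 and 0.904 with DEX, a log2 fold change of -2.66 ± 0.22 (adjusted p = 1.59e-07). It had the largest fall among the members. COL13A1, a cell adhesion collagen, stood at 60.97, 61.4 and 64.6 CPM without drug and at 26.7, 25.5 and 27.4 with DEX. All DEX wells were lower, with a log2 fold change of -1.23 ± 0.067 (adjusted p = 1.38e-09). In RNA from whole wells, fewer cells that make a transcript and less of it per cell cannot be told apart.

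Among the laminins 4 of 10 tested chains rose with DEX and 3 fell. The most abundant, LAMC1, stood at 422, 407 and 404 CPM without drug and 448, 441 and 434 with DEX. Its log2 fold change was 0.10 ± 0.044 and did not pass (adjusted p = 0.0702), although all DEX wells were higher. It passed with DESeq2 (adjusted p = 0.0364), with DESeq2's size factors in edgeR (0.0497), with the 2 compared groups alone (0.00625) and without well 3 of the combination group, which shares the estimate of spread (0.00433). LAMA5 (0.28), LAMB2 (0.23) and LAMB1 (0.20), chains of the widely made laminins, rose by these log2 values. LAMA2, the alpha chain of muscle and nerve laminin, rose by 0.56 ± 0.19 (adjusted p = 0.0283). Its call was lost when any 1 of 5 wells was left out: no-drug well 1 (0.0526) or 3 (0.0793), or DEX well 1 (0.0507), 2 (0.0560) or 3 (0.0671). It was also lost with DESeq2 (0.120) and with no count filter (0.0517). LAMA1 fell by 0.25 ± 0.049 on the log2 scale, and LAMA4, the alpha chain of vessel laminins, fell by 0.42 ± 0.13. The LAMA4 call was lost without no-drug well 1 (adjusted p = 0.0693) or DEX well 3 (0.0557).

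Of LAMA3 and LAMB3, an alpha and a beta chain of one epithelial laminin, LAMB3 passed with DEX and LAMA3 did not. LAMB3 stood at 91.9, 93.6 and 94.9 CPM without drug and at 59.4, 58.3 and 63.4 with DEX, a log2 fold change of -0.63 ± 0.064 (adjusted p = 1.27e-06). LAMA3 had 0.16 ± 0.084 (95% interval -0.020 to 0.34). LAMA3 passed without well 3 of the combination group (adjusted p = 0.0266) and with the 2 compared groups alone (0.0154). The promoters of LAMB3 and COL17A1 are shown because these genes encode proteins of the same junction and both fell with DEX. The windows are GRCh38.p14 chr1:209651325-209651624, 1 of 3 listed for LAMB3, and chr10:104085831-104086130, both on the minus strand. The LAMB3 window with the most motif matches is printed, and the other 2, which overlap, both hold the same match to AGAACA, the glucocorticoid half-site, which the printed one lacks. Capitals mark TGACTCA, an AP-1 site, 67 bases before the LAMB3 start and a CCAAT match on the other strand 122 before it, and in COL17A1 a TATAAA 206 bases and a CCAAT match on the other strand 101 bases before the start.
LAMB3: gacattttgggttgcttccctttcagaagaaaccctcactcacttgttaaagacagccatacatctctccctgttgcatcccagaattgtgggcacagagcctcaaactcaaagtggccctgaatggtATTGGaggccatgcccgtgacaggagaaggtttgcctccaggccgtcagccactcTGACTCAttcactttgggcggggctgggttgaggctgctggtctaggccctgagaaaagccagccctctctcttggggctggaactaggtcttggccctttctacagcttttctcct
COL17A1: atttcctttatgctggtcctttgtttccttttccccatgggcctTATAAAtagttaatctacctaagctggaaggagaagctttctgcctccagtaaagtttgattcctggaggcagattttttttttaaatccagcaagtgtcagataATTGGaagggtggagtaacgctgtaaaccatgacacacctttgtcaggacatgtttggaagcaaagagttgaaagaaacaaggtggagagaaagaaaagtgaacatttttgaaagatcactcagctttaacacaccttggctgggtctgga

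In the basement-membrane collagens 4 of 8 tested members rose and 2 fell with DEX. The 6 type IV chains lie in 3 head-to-head gene pairs: COL4A1 with COL4A2, COL4A3 with COL4A4, and COL4A5 with COL4A6. Their annotated starts are 127, 419 and 380 bases apart. Of COL4A1 and COL4A2, the chains of the common type IV network, COL4A1 alone passed. COL4A1 stood at 235, 222 and 220.1 CPM without drug and at 285, 275 and 283 with DEX, a log2 fold change of 0.31 ± 0.048 (adjusted p = 7.2e-05). COL4A2 stood at 275, 256 and 253 CPM without drug and at 257, 244 and 263 with DEX, where the wells overlapped and the log2 fold change was -0.040 ± 0.047 (adjusted p = 0.523). The log2 ratio of COL4A1 to COL4A2 CPM was -0.231, -0.204 and -0.204 in the no-drug wells and 0.146, 0.171 and 0.109 in the DEX wells. The ratio was below 0 in each no-drug well and above 0 in each DEX well, and the difference between the 2 chains was not tested. The windows of this pair overlap over 226 bases on opposite strands and are shown because the pair shares its promoter. They are GRCh38.p14 chr13:110307108-110307407, minus strand, and chr13:110307034-110307333, plus strand, and capitals mark the CCAAT box they share, 26 bases before the COL4A1 start and 105 before the COL4A2 start.
COL4A1: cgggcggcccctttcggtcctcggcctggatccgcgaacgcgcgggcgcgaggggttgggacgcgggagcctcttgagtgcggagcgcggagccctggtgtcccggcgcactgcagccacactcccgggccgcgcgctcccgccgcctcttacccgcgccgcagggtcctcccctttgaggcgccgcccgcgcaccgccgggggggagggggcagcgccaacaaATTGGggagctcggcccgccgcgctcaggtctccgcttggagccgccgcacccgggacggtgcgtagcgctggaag
COL4A2: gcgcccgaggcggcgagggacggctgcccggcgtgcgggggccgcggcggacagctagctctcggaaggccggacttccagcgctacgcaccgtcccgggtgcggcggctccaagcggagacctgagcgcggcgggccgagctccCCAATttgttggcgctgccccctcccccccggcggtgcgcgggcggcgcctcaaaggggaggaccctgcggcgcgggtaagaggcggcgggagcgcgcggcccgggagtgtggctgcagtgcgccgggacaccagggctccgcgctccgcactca

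COL4A4, a chain of specialised basement membranes such as that of the kidney glomerulus, stood at 3.60, 3.28 and 3.09 CPM without drug and 6.81, 7.64 and 8.29 with DEX. Every DEX well was above every untreated well, with a log2 fold change of 1.19 ± 0.11 (adjusted p = 3.84e-07). Its pair COL4A3, at 38 and 57 summed counts, had 0.73 ± 0.33 and did not pass (adjusted p = 0.0885). COL4A5 rose by 0.76 ± 0.084 and COL4A6 by 0.82 ± 0.18. COL15A1 and COL18A1, whose collagens XV and XVIII carry glycosaminoglycan chains and an endostatin domain, both fell. COL15A1 stood at 1.38, 1.66 and 1.23 CPM without drug and 0.426, 0.445 and 0.452 with DEX, a log2 fold change of -1.68 ± 0.23 (adjusted p = 3.05e-05). COL18A1 fell by 0.50 ± 0.043 on the log2 scale.

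**Figure D2:**
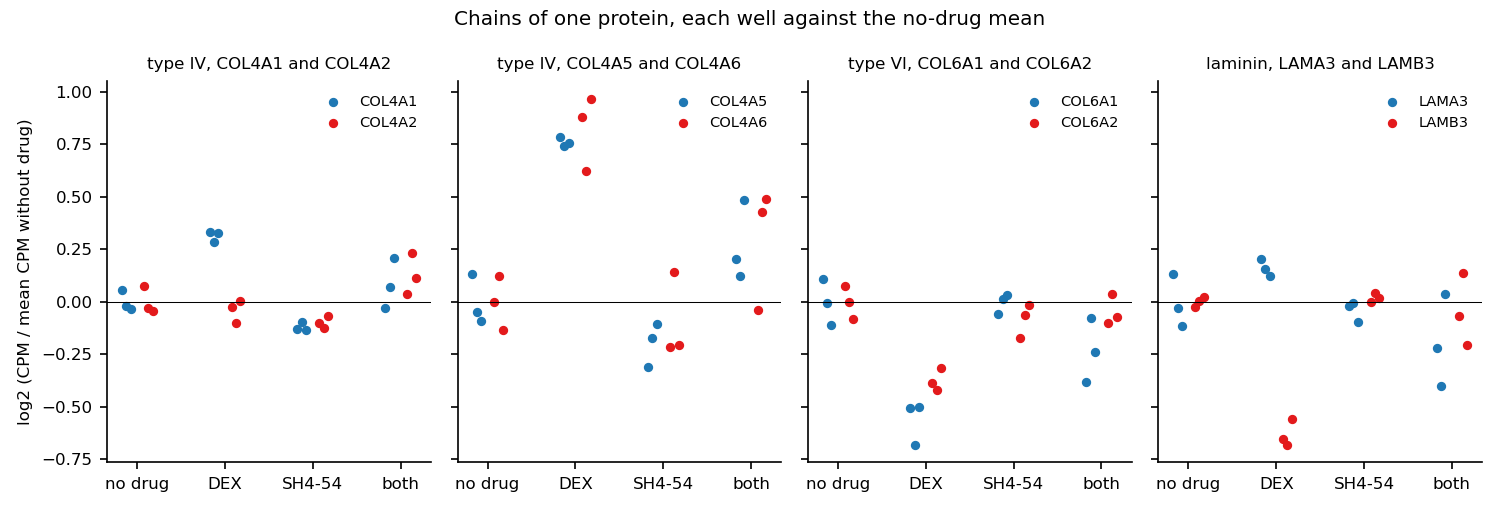
Log2 of CPM over the mean no-drug CPM for chains of one protein, with 1 point per well in the 4 groups. COL4A1 lies above COL4A2 in the DEX wells, and COL4A5 and COL4A6 rise together there. COL6A1 and COL6A2 both fall there, COL6A1 further. LAMB3 falls with DEX while LAMA3 does not.

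Of the remaining classes, the fibrillar collagens had 1 of 5 tested members higher with DEX and 0 lower. COL5A1, the chain that nucleates collagen fibrils and the most abundant fibrillar chain here, stood at 50.9, 44.9 and 45.5 CPM without drug and at 66.2, 59.2 and 64.9 with DEX. The DEX wells were all higher, with a log2 fold change of 0.43 ± 0.074 (adjusted p = 0.000233). COL1A1, with 115 counts summed over the no-drug wells and 67 over the DEX wells, had -0.62 ± 0.26 (adjusted p = 0.0670) and passed without well 2 of the combination group (0.0404). Among the collagens that decorate fibrils (FACIT collagens), 1 of 3 rose and 1 fell. COL12A1, which links fibrils to other matrix in tendon and tumour stroma, stood at 190.4, 189 and 194 CPM without drug and at 363, 328 and 341 with DEX. Its log2 fold change was 0.85 ± 0.068 (adjusted p = 8.93e-08), with no overlap. COL9A2, a cartilage chain, fell by 0.50 ± 0.14 on the log2 scale. Of the nidogen and heparan sulfate proteoglycan class 1 of 3 passed. AGRN, agrin, stood at 217, 208 and 211 CPM without drug and at 191, 172 and 195 with DEX, a log2 fold change of -0.19 ± 0.057 (adjusted p = 0.0141). The AGRN call was lost without no-drug well 1 (adjusted p = 0.0508) or DEX well 2 (0.0812). HSPG2, perlecan, had -0.095 ± 0.087, with a 95% interval of -0.28 to 0.092.

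SH4-54 alone was compared with no drug to see what the STAT inhibitor does without a glucocorticoid. COL8A1 was the 1 member of 46 called, and it fell. COL8A1 stood at 82.9, 83.1 and 83.5 CPM without drug and at 59.8, 61.8 and 62.7 with SH4-54, with no overlap. The log2 fold change was -0.44 ± 0.071 (adjusted p = 0.00999). The call was lost without no-drug well 2 (adjusted p = 0.0566) or no-drug well 3 (0.0516). Over all tested genes 0.599% were called, 0.268% higher and 0.331% lower. At an unadjusted p below 0.05 edgeR had 2 members higher and 7 lower, 19.6% of 46, against 13.1% of all tested genes (5.9% higher, 7.23% lower). DESeq2's Wald test called 2 members lower, COL8A1 among them. For the 6 members with the largest DEX changes the 95% interval of the log2 difference stayed nearer to 0 than the DEX change. It was -0.34 to 0.38 for COL17A1, -0.34 to 0.065 for FN1, -0.59 to -0.28 for COL8A1, -0.20 to 0.59 for COL15A1, -0.25 to 0.19 for COL7A1 and -0.41 to -0.0088 for LOX.

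Both compounds were compared with DEX alone to see what SH4-54 does in glucocorticoid-treated cells. Here 16 of 46 members were higher and 13 lower, 63.0% in all, against 26.6% of all tested genes (13% higher, 13.5% lower). The median size of the log2 difference, sign ignored, was 0.35 over the members and 0.12 over all tested genes. COL17A1, COL15A1, COL7A1, LAMB3, TNC and COL13A1 were higher with both compounds than with DEX, and COL8A1, LOX, FN1 and 4 of the 6 type IV chains were lower. This comparison shares the DEX wells with the comparison above, so a well value that is high or low by chance enters both with opposite sign.

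FN1 stood at 314, 305 and 419.5 CPM with both compounds, below all DEX wells and above all no-drug wells, and differed from DEX by -0.71 ± 0.092 (adjusted p = 0.000125). Well 3 of the combination was the highest for FN1, for COL8A1 and for LOX. COL8A1 stood at 151, 126 and 167 CPM, a log2 difference of -0.89 ± 0.068 (adjusted p = 1.83e-06). LOX stood at 34.6, 32.3 and 43.8 CPM and differed by -0.75 ± 0.088 (adjusted p = 6.09e-05). All 3 genes thus lay between the untreated and the DEX levels in every combination well. LOXL1, which DEX alone had not moved past the threshold, stood at 12.4, 12.1 and 12.4 CPM with DEX and 7.11, 8.19 and 10.1 with both. Every combination well was lower, with a difference of -0.53 ± 0.11 (adjusted p = 0.00259). TNC stood at 8.70, 10.6 and 8.86 CPM with both and was higher than with DEX by 0.50 ± 0.090 (adjusted p = 0.00133).

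**Figure D3:**
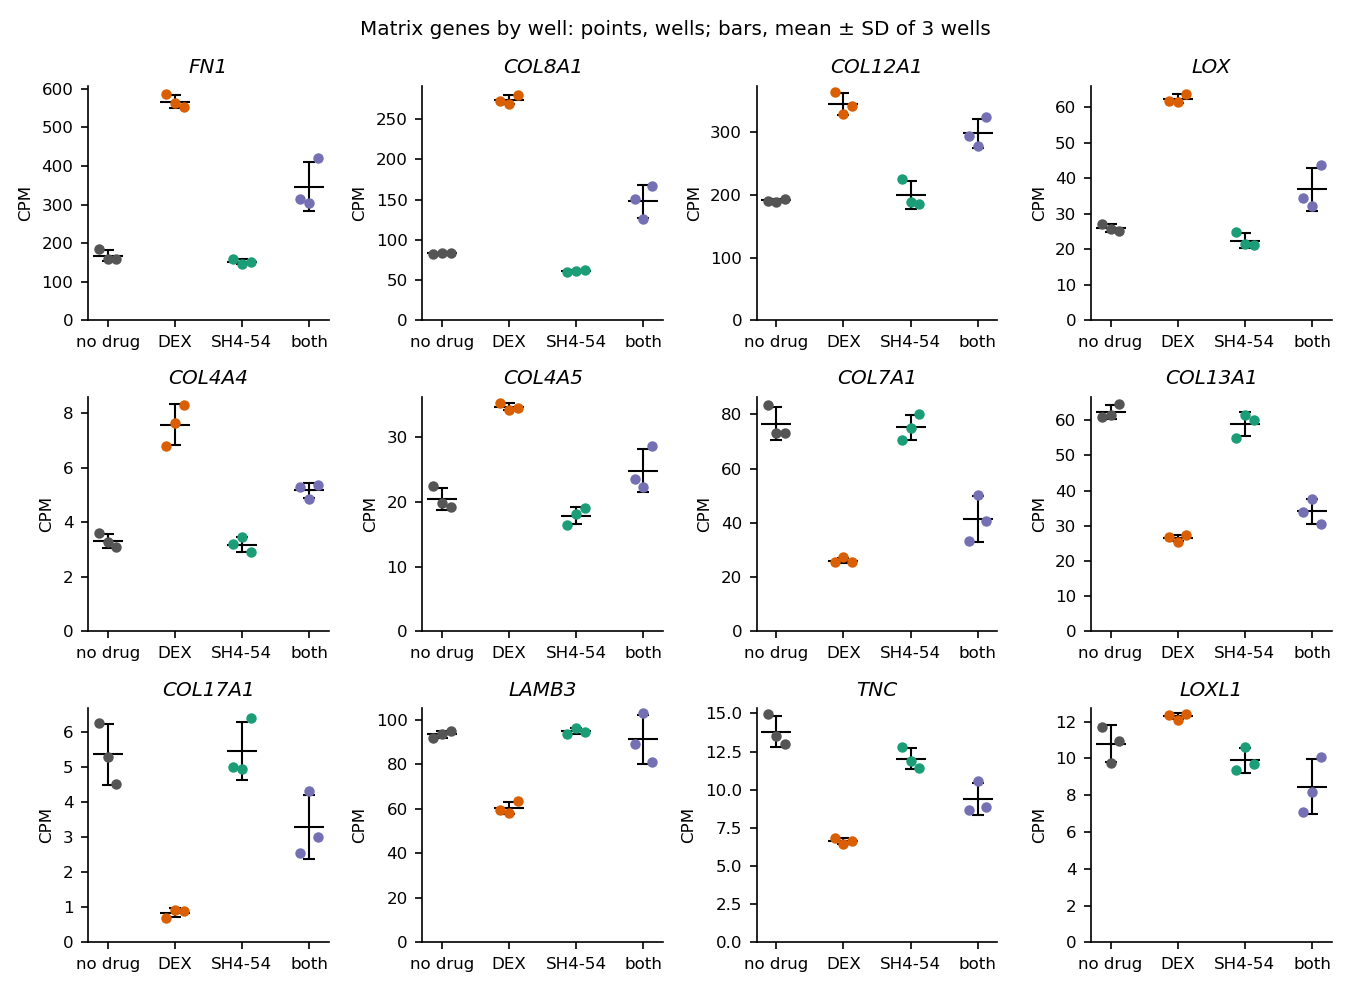
CPM of 12 members in each of the 12 wells, with the mean and SD of the 3 wells of a group as bars and the vertical axes starting at 0. FN1, COL8A1 and LOX are highest with DEX, COL7A1, COL13A1, COL17A1 and TNC are lowest with DEX, and the combination wells lie between the DEX and no-drug wells for these 7 genes.

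COL17A1, COL7A1 and LAMB3, genes of the epithelial anchoring complex, were higher with both compounds than with DEX alone. COL17A1 stood at 2.56, 4.31 and 2.999 CPM with both, all above the DEX wells, a log2 difference of 1.95 ± 0.24 (adjusted p = 8.17e-05). COL7A1 stood at 33.1, 50.4 and 40.7 CPM, a difference of 0.67 ± 0.11 (adjusted p = 0.000780). LAMB3 stood at 89.2, 103 and 81.1 CPM, spread around the no-drug wells and above all DEX wells, a difference of 0.59 ± 0.064 (adjusted p = 2.96e-05). Its partner LAMA3 was lower with both than with DEX, with a log2 difference of -0.34 ± 0.085. COL13A1 stood at 34.00, 37.7 and 30.6 CPM with both and differed from DEX by 0.36 ± 0.068 (adjusted p = 0.00174).

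In the basement-membrane collagens 3 of 8 were higher and 4 lower with both compounds than with DEX. COL15A1 was higher by 1.74 ± 0.23, at 1.44, 1.85 and 1.21 CPM, and COL18A1 by 0.15 ± 0.043. COL4A4 stood at 5.28, 4.85 and 5.38 CPM and was lower, with a log2 difference of -0.55 ± 0.10 (adjusted p = 0.00157). COL4A5 (-0.48 ± 0.083) and COL4A6 (-0.50 ± 0.18) were lower too. The common network chains moved in opposite directions. COL4A1 stood at 221, 237 and 261 CPM with both and was lower than with DEX (-0.23), while COL4A2 stood at 269, 308 and 283 and was higher (0.17). Their log2 ratio was -0.283, -0.377 and -0.120 in the combination wells and -0.244, -0.189 and -0.281 in the SH4-54 wells, below 0 in each well of these groups. The collagen VI chains COL6A1 and COL6A2 were both higher with both compounds, by 0.33 ± 0.077 and 0.33 ± 0.057.

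With both compounds COL12A1 stood at 293, 278 and 323 CPM and was lower than with DEX, with a log2 difference of -0.21 ± 0.067 (adjusted p = 0.0318). AGRN stood at 202, 229.8 and 199 CPM (0.18, adjusted p = 0.0324) and LOXL2 at 97.99, 106 and 101 CPM (0.15, adjusted p = 0.0179), both higher than with DEX. LAMC1 stood at 393, 393 and 448 CPM and COL5A1 at 50.6, 59.2 and 61.5, and neither passed. Their 95% intervals against DEX were -0.19 to -0.0067 and -0.31 to 0.0068. Both genes passed when combination well 3, the highest for each, was left out (adjusted p = 0.000717 and 0.0405). LAMA2 was higher by 0.52 ± 0.17 and COL27A1, a fibrillar chain of cartilage, by 0.49 ± 0.16, the latter with wells that overlapped. With the 2 compared groups fitted alone AGRN (adjusted p = 0.0656), LAMA2 (0.0531) and COL27A1 (0.0703) missed the threshold, and LAMA2 missed it with DESeq2 as well (0.177). LAMA5-AS1, at 9, 4 and 9 counts in the DEX wells and 16, 25 and 22 in the combination wells, was higher by 1.38 ± 0.34 (adjusted p = 0.00924), and its call was lost without DEX well 2 (0.0513).

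A number of these calls were lost when 1 well was left out, most of them with more than 1 choice of that well. Without DEX well 2 the calls for AGRN (adjusted p = 0.155), COL4A2 (0.0749), COL18A1 (0.0993), LAMA2 (0.0864), LAMB1 (0.0685), LOXL2 (0.0883) and COL27A1 (0.107) were lost. Without combination well 2 the same 7 were lost, at 0.167, 0.0775, 0.0684, 0.116, 0.0799, 0.0824 and 0.161 in that order, and so were FBN1 (0.0879), COL12A1 (0.139) and COL4A6 (0.0817). Without combination well 1 FBN1 (0.0699), COL12A1 (0.0899), LAMA2 (0.0806), LAMB1 (0.105) and COL4A6 (0.174) were lost, and without combination well 3 COL18A1 (0.0554) and COL27A1 (0.0652). Without DEX well 1 AGRN (0.0502), FBN1 (0.0614), COL12A1 (0.124), LAMA2 (0.0789), LAMB1 (0.0927) and COL4A6 (0.115) were lost. Without DEX well 3 FBN1 (0.0506), COL12A1 (0.0672), LAMA2 (0.0701), COL27A1 (0.0942) and COL4A6 (0.155) were lost. COL4A6 was also lost without each no-drug well (0.0578 to 0.0593) and without SH4-54 well 1 (0.0529) or 3 (0.0582). Calls for FN1, COL8A1, LOX, LOXL1, COL4A1, COL4A4, COL4A5, COL7A1, COL13A1, COL15A1, COL17A1, LAMB3 and TNC held in all 12 fits that left out 1 well.

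DEX was also compared within SH4-54-treated cells, both compounds against SH4-54 alone, which shares no well with DEX against no drug. Of 46 members 18 were higher and 9 lower, 58.7%, against 40.4% of all tested genes (20.1% higher, 20.3% lower). Of the 30 members called with DEX alone 22 were called here too (73.3% of 30, 81.5% of the 27 called here), 13 up and 9 down, and 0 in the opposite direction. The same overlap was not counted over all tested genes, so these shares cannot be read as particular to the members. FN1 rose from 159, 146 and 151 CPM with SH4-54 to 314, 305 and 419.5 with both, a log2 fold change of 1.19 ± 0.095. COL8A1 (1.27), LOX (0.72), COL4A4 (0.70) and COL12A1 (0.58) were higher by these values, and COL7A1 (-0.86), COL13A1 (-0.79), COL17A1 (-0.73) and TNC (-0.36) lower. The 8 members called only without SH4-54 were AGRN, COL8A2, COL9A2, LAMB3, COL6A2, LOXL2, COL15A1 and COL4A6. Calls here for COL16A1, FBN1, COL6A3, LAMA5, COL6A1, LAMB2, LAMA2 and LAMB1 were lost in 1 to 10 of the 12 fits that left out 1 well, with adjusted p-values up to 0.182. A call on 1 side is not by itself a difference between the sides.

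That difference was tested as an interaction, the DEX effect with SH4-54 minus the DEX effect without it. It passed for 11 of 46 members, 8 above 0 and 3 below, 23.9%, against 3.9% of all tested genes (2.44% above 0, 1.46% below). For FN1, LOX and COL8A1 the rise with DEX was smaller when SH4-54 was present, and for 7 other members the difference with DEX was nearer to 0. COL17A1 fell by 2.66 with DEX alone and by 0.73 in the presence of SH4-54 on the log2 scale, an interaction of 1.93 ± 0.29 (adjusted p = 0.00451). COL15A1 fell by 1.68 and had -0.14 with SH4-54, an interaction of 1.54 ± 0.30 (adjusted p = 0.0143). LAMB3 fell by 0.63 and had -0.058 with SH4-54, an interaction of 0.57 ± 0.090 (adjusted p = 0.00513). TNC (0.70 ± 0.12), COL7A1 (0.69 ± 0.15), COL13A1 (0.44 ± 0.093) and COL6A2 (0.41 ± 0.079) also had interactions above 0. FN1 rose by 1.76 with DEX alone and by 1.19 with SH4-54 present, an interaction of -0.57 ± 0.13 (adjusted p = 0.0292). LOX (-0.54 ± 0.13) and COL8A1 (-0.45 ± 0.10) likewise had interactions below 0. COL4A2 had -0.040 with DEX alone and 0.23 with SH4-54 present, an interaction of 0.27 ± 0.066 (adjusted p = 0.0382).

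**Figure D4:**
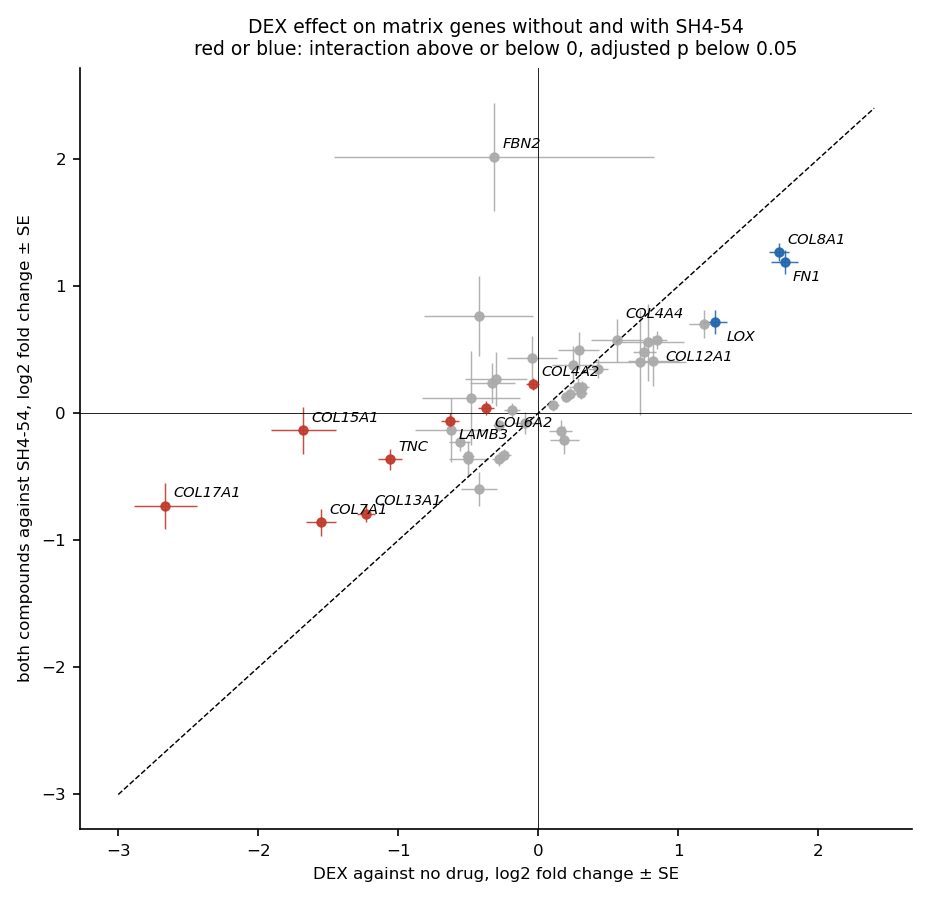
Log2 fold change ± SE of 45 of the 46 tested members for DEX without SH4-54 (horizontal) and with it (vertical), with the line of equal values dashed. Of the 11 members with an interaction past the threshold, COL17A1, COL15A1, COL7A1, COL13A1, TNC, LAMB3 and COL6A2 lie left of 0 and above the line, and FN1, COL8A1 and LOX right of 0 and below it.

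The interactions of COL17A1, COL15A1, LAMB3, TNC and COL6A2 passed in all 12 fits that left out 1 well. FN1 and LOX passed in only 2 of 12. FN1 kept its call without no-drug well 1 or combination well 3, and had adjusted p-values of 0.0502 to 0.0838 without each other well. LOX kept its call without SH4-54 well 3 or combination well 3, and had 0.0501 to 0.0898 without each other well. COL4A2 kept its call without combination well 1 or 3, and had 0.0565 to 0.103 without each other well. COL8A1 was lost without no-drug well 2 or 3, any DEX well, or SH4-54 well 2 or 3 (0.0504 to 0.0619). COL7A1 was lost without no-drug well 1, any DEX well or SH4-54 well 2 (0.0518 to 0.0616), and COL13A1 without no-drug well 3 (0.0596) or DEX well 2 (0.0605). Leaving out combination well 3 had the opposite effect for some members. LAMA3, FBN1, LOXL1, COL4A1, COL4A4, COL4A5 and COL12A1 then passed (adjusted p = 0.00476, 0.00953, 0.00843, 0.0208, 0.0495, 0.00980 and 0.0180). The gain was not particular to the members. Over all tested genes that fit called 833 above 0 and 1213 below, against 346 and 207 with all wells. FKBP5, the label check, ranged from 181 to 271 CPM over the combination wells, and was highest in well 3. The part of this spread in the results was not tested.

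Both compounds together were last compared with no drug. Of 46 members 16 were higher and 12 lower, 60.9%, against 42.7% of all tested genes (21.1% higher, 21.6% lower). FN1 (1.05 ± 0.094), COL8A1 (0.83 ± 0.069), LAMA2 (1.09 ± 0.17), COL12A1 (0.64 ± 0.068) and COL4A4 (0.64 ± 0.11) were higher than without drug. COL7A1 (-0.89 ± 0.11), COL13A1 (-0.87 ± 0.065), LAMA4 (-0.79 ± 0.13), COL17A1 (-0.71 ± 0.18) and TNC (-0.56 ± 0.083) were lower. LAMB3 had -0.039 ± 0.063 (95% interval -0.17 to 0.10) and COL15A1 0.058 ± 0.18 (95% interval -0.33 to 0.45). LAMB3 passed as lower without combination well 2 (adjusted p = 0.0293). Of the 11 calls lost when 1 well was left out, those of COL6A3 and LAMB1 were lost most often, in 7 and 9 of 12 fits, with adjusted p-values up to 0.205 and 0.204.

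A few genes that matched by symbol, members or below the count minimum, lay close to the limit of detection. They had most of their reads in wells with both compounds, and were singled out after their values were seen. FBN2, fibrillin-2, a microfibril protein of developing tissue, had 0, 7 and 0 counts without drug, 1, 2 and 2 with DEX, 13, 10 and 9 with SH4-54 and 42, 62 and 36 with both. Every combination well was above every other well, with log2 differences of 4.30 ± 0.57 from no drug, 4.61 ± 0.62 from DEX and 2.02 ± 0.43 from SH4-54. FBN2 and COL26A1 reached 10 counts in 3 libraries only through the combination wells, so that group was bound to be high in them. Their values are a description, and FBN2 is 1 of the members counted as higher with both compounds in each of the 3 comparisons. COL26A1 had 0, 1 and 0 counts without drug, 0 in each DEX well, 3, 0 and 0 with SH4-54 and 13, 19 and 12 with both. Against a floor of 3 counts over the DEX group it was 13.4-fold higher with both compounds than with DEX. NID1, nidogen-1, which links laminin to type IV collagen, was below the count minimum, with 1, 0 and 0 counts without drug, 0 in each DEX well, 1, 2 and 4 with SH4-54 and 11, 11 and 9 with both. Against the same floor that is 9.47-fold higher with both than with DEX. COL20A1, also below the minimum, had 2, 1 and 0 counts without drug and 6, 17 and 6 with both. COL2A1, below it as well, had 0 in each no-drug well and 4, 5 and 3 with both. That is 4.07-fold higher against a floor of 3 counts over the no-drug group. The 24 rows below the minimum had 159 counts in all without drug, 84 with DEX, 165 with SH4-54 and 231 with both. Some of these rows were lower with both compounds than without drug, such as COL21A1 (13 against 23 summed counts) and COL25A1 (10 against 16). The folds against a floor of 3 counts take the count with both compounds as exact. They cover neither the counting error of that count nor the spread between wells.

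**Figure D5:**
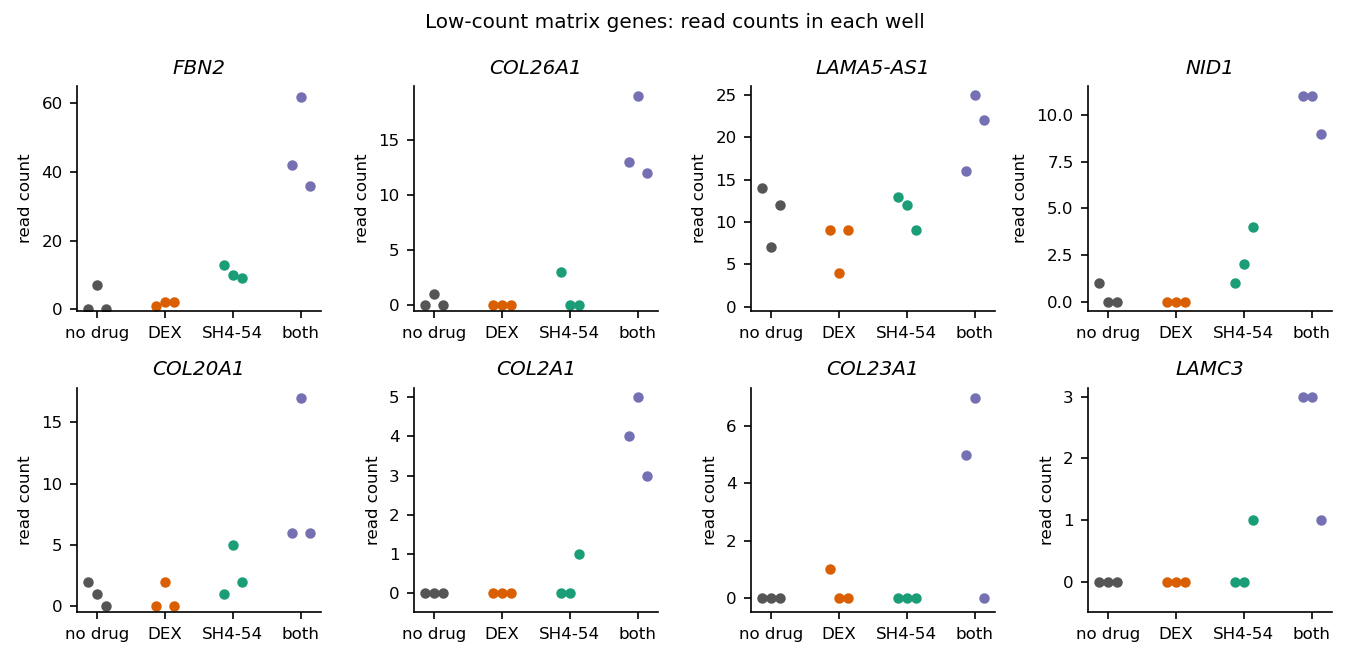
Read counts, not scaled for library size, of 8 genes with few reads in each of the 12 wells. FBN2, COL26A1, NID1, COL20A1 and COL2A1 have their highest counts in the wells with both compounds, and FBN2 reaches 62 counts there.

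Other genes of matrix assembly were taken as 6 lists, 91 tested genes in all. With DEX 26 rose and 25 fell, 56.0%, against the 45.1% over all genes. Of 31 collagen folding and processing genes 12 rose and 6 fell. PLOD2, the lysyl hydroxylase of collagen telopeptides, rose by 0.73 ± 0.040, the prolyl hydroxylase P4HA2 by 0.43 ± 0.036 and the collagen galactosyltransferase COLGALT1 by 0.30 ± 0.027. FKBP14, a folding enzyme of the endoplasmic reticulum, fell by 0.43 ± 0.050. Of 15 elastic fibre and microfibril genes 4 rose and 1 fell. FBLN5 (fibulin-5, 1.66 ± 0.17), EFEMP1 (fibulin-3, 1.41 ± 0.041) and LTBP1, which holds latent TGF-beta in the matrix (0.95 ± 0.091), rose. Of 10 other basement-membrane genes 3 rose and 3 fell, with PAPLN (papilin) at 2.05 ± 0.14, CCDC80 at 1.27 ± 0.054 and NTN4 (netrin-4) at -0.32 ± 0.040.

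Of 13 matrix receptors other than integrins 3 rose and 6 fell with DEX. SDC4 (syndecan-4) rose from 162 ± 3.70 to 324 ± 7.53 CPM (SD, n = 3), a log2 fold change of 1.00 ± 0.034, while the hyaluronan receptor CD44 had -0.62 ± 0.059 and the urokinase receptor PLAUR -0.52 ± 0.059. Of 13 matricellular genes 2 rose and 5 fell. THBS1, thrombospondin-1, rose from 4316 ± 143 to 9881 ± 228 CPM, and NOV (-1.43 ± 0.067) and MATN2 (-0.81 ± 0.041) fell. Of 9 proteoglycans 2 rose and 4 fell. DCN, the fibroblast proteoglycan decorin, had 1 count in all without drug and 81 with DEX, at 21, 33 and 27 in the 3 wells. SRGN (serglycin) rose by 0.72 ± 0.039.

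With both compounds against DEX 14 of the 91 were higher and 24 lower, 41.8%, against the 26.6% over all genes. The collagen folding and processing list had 2 higher and 10 lower, and the elastic fibre list 0 higher and 4 lower. The matricellular list had 8 of 13 higher and 1 lower. CTGF, which DEX alone had not moved past the threshold (-0.10), was higher by 0.59 ± 0.073. LTBP1 (-0.67), MFAP2, a microfibril protein (-0.71), FBLN5 (-0.64) and PAPLN (-0.60) were lower by these log2 values, and CD44 (0.39), PLAUR (0.40) and TINAGL1 (0.37) higher. With SH4-54 alone 0 of the 91 rose and 3 fell, SDC1, SDC2 and MATN2, at -0.20, -0.20 and -0.24, 3.30% called against 0.599% of all tested genes. At an unadjusted p below 0.05 edgeR had 7 of the 91 higher and 13 of the 91 lower. Of all 14184 tested genes it had 837 (5.9%) higher and 1025 (7.23%) lower. These 3 calls were lost in 3 to 5 of the 12 fits that left out 1 well: all 3 without no-drug well 2 (adjusted p = 0.0911, 0.123 and 0.0911 for SDC1, SDC2 and MATN2) or no-drug well 3 (0.0643, 0.123 and 0.0879), SDC1 also without no-drug well 1 (0.0539) or SH4-54 well 2 (0.0707) or 3 (0.0584), SDC2 without SH4-54 well 1 (0.0768), and MATN2 without SH4-54 well 1 (0.0646) or 2 (0.0595). The interaction passed for 8 of the 91, 8.79% against 3.9%: NOV (0.36), CYR61 (0.35) and MATN2 (0.28) above 0, and LTBP1 (-0.53), SDC3 (-0.44), EFEMP1 (-0.34), PLOD2 (-0.29) and P3H2 (-0.22) below. The interactions of PLOD2, P3H2 and EFEMP1 passed in all 12 fits that left out 1 well. SDC3 was lost without DEX well 1 (adjusted p = 0.0504), and MATN2 without no-drug well 2 (0.0585) or 3 (0.0650), DEX well 3 (0.0524) or SH4-54 well 2 (0.0552). CYR61 kept its call only without SH4-54 well 1 or combination well 3 (up to 0.124 without each other well), and NOV only without a combination well (up to 0.112). With DESeq2's size factors in edgeR both missed the threshold (0.0547 and 0.0546), as CYR61 did with the replicate block (0.0602). LTBP1 kept its call only without no-drug well 1, SH4-54 well 1 or combination well 3 (up to 0.0984).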

How the data were processed

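Total RNA was depleted of ribosomal RNA and sequenced from stranded libraries as 50-base single-end reads, per the labels' protocols. The table the authors deposited holds raw read counts by gene symbol in 12 libraries, and 0 columns belong to other samples. The submitters' processing notes name HISAT2 2.1.0, featureCounts 1.5.1, SAMtools and the build hg19 (GRCh37). The sources used here give no annotation, strand setting or rule for multi-mapping reads. Groups came from the titles, and SH4-54 is written SH5-54 in the treatment labels of its samples.

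Genes were filtered by filterByExpr (14184 of 26364 left), scaled by TMM and fitted with edgeR 4.0.16 (R 4.3.3) as 1 quasi-likelihood model of 4 groups with 8 residual degrees of freedom, with Benjamini-Hochberg adjustment over all tested genes at 0.05. Adjusted p-values are edgeR's unless another tool is named. A standard error is the size of the log2 fold change divided by the root of the F statistic. CPM uses TMM-scaled sizes. Well values are given for members averaging 5 CPM or more in a group that passed with a log2 change of at least 0.8 (DEX or both against no drug) or 0.5 (both against DEX, SH4-54 against no drug, interaction), and for the most abundant of each class. Values of COL4A1, COL15A1 and the low-count genes were added after they were seen. From each of the 6 partner lists up to 4 genes with the smallest p are named; MATN2, SDC1, SDC2, SDC3, CYR61 and P3H2 were added as the called genes of small counts. The values of 1 member are not reported here, though it stays in the fits and counts. The members, lists and rules were chosen with earlier results of these data known. Promoter windows are RefSeq's (GRCh38.p14), with entries for 39 of 47 members, and exon lengths are from GENCODE on GRCh38.

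On simulated counts the test recovered 23, 38, 46 and 48 of 50 genes changed 1.25, 1.5, 2 and 4-fold for DEX against no drug, with 4.91% of calls on unchanged genes, and 16, 31, 32 and 47 of 50 for the interaction, with 5.97%. For both against DEX that share was 7.02%. In the simulation 50 genes at each fold changed in 1 group, and every other gene had the same mean in all groups. In the data 45.1% of the tested genes were called for DEX, so these shares may not carry over. Alternatives were DESeq2 1.42.0, its size factors in edgeR, no filter, the compared groups alone, a replicate block, a stricter filter (1 CPM or more in 3 libraries, mean count of 20 or more), and leaving out each library. Libraries of 1 group differed by more than sampling noise, with a chi-square per degree of freedom of 4.18 or more in each pair.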

Additional observations from a re-analysis of the deposited data

Results flagged for a closer look

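For 11 members the DEX effect differed with and without SH4-54 by the interaction test (edgeR, adjusted p below 0.05), and the values are log2 differences of the 2 effects. Above 0 were COL17A1 (1.93), COL15A1 (1.54), TNC (0.70), COL7A1 (0.69), LAMB3 (0.57), COL13A1 (0.44), COL6A2 (0.41) and COL4A2 (0.27). Below 0 were FN1 (-0.57), LOX (-0.54) and COL8A1 (-0.45). COL17A1, COL15A1, LAMB3, TNC and COL6A2 passed under each alternative run. With 3 wells a group, single wells were not tested for standing apart.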

How the results depend on the processing

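No called member or named partner gene changed direction under any alternative run. A call was counted as kept if it passed in each alternative run that tested the gene. Kept were 26 of 30 for DEX against no drug, 0 of 1 for SH4-54 and 17 of 28 for both against no drug. They were 18 of 29 for both against DEX, 19 of 27 for both against SH4-54 and 5 of 11 for the interaction. The compared groups alone were not fitted for the interaction. With SH4-54 alone DESeq2 called 2 members lower (1 in edgeR). In the partner lists SH4-54 alone gave 0 higher, but 3 with DESeq2, 2 with no count filter and 3 with the compared groups alone. The partner interaction gave 3 above 0, but 5 with DESeq2, 1 with DESeq2 size factors and 5 with no filter, and 5 below 0, but 8 with DESeq2. The cause was not tested. Over all tested genes the interaction was called for 346 above and 207 below 0 by edgeR, 384 and 370 by DESeq2, and 249 and 145 with the replicate block. SH4-54 alone was called for 38 up and 47 down by edgeR, 76 and 109 by DESeq2, 82 and 94 with no filter, and 71 and 84 with the compared groups alone.

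Leaving out 1 library at a time gave ranges of member calls of 13 to 17 up and 13 to 16 down for DEX, 0 to 0 up and 0 to 1 down for SH4-54, 9 to 17 up and 9 to 13 down for both against no drug, 10 to 17 up and 9 to 16 down for both against DEX, 13 to 20 up and 8 to 11 down for both against SH4-54, and 5 to 8 up and 0 to 10 down for the interaction. For the partner lists the ranges were 22 to 27 up and 20 to 27 down for DEX, 0 to 3 and 0 to 3 for SH4-54, 18 to 24 and 19 to 26 for both against no drug, 11 to 14 and 19 to 32 for both against DEX, 22 to 23 and 20 to 26 for both against SH4-54, and 0 to 10 and 3 to 15 for the interaction.

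DESeq2 lost COL8A2 and LAMA2 for DEX, COL16A1 and LAMA5-AS1 for both against no drug, LAMA2 and COL4A6 for both against DEX, and COL16A1 and LAMA2 for both against SH4-54, with adjusted p-values of 0.0923 to 0.177. With the compared groups alone FBN1 (0.0874), COL4A2 (0.0708), COL6A3 (0.0642) and LAMB1 (0.0825) were lost for both against no drug, LAMB1 (0.05996) and COL4A6 (0.0835) for both against DEX, and COL16A1 (0.101) for both against SH4-54. For DEX that fit gained COL1A1 (0.0412), COL4A3 (0.0342) and LOXL1 (0.0487).

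The titles number the replicates and do not say what the numbers stand for. Over 18 same-numbered pairs the correlation of deviations ran from -0.0975 to 0.0926. Over 36 pairs with different numbers it ran from -0.107 to 0.142. With the replicate block 6 member calls were lost: COL4A2 (adjusted p = 0.0547), COL6A3 (0.0582) and LAMB1 (0.0639) for both against no drug, COL4A6 (0.0643) for both against DEX, COL16A1 (0.0718) for both against SH4-54 and COL4A2 (0.0656) for the interaction. Members with under about 60 counts a group, such as COL8A2, COL4A3 and COL24A1, have wide intervals, and changes of 1.25-fold were often missed in the simulation.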
